A study of Mus musculus with 4 samples.

Results

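Wild-type mouse growth plate-like chondrocytes (GPLC cells) were compared between day 10 and day 3 of culture, over all genes measured. GPLC is the name the labels give to a cell line, and its cells were kept in DMEM with fetal bovine serum, ascorbic acid, insulin, transferrin and selenium on both days. Neither day carries a further allele, agent or treatment in the labels, so the groups differ in time in culture alone as far as those say. The labels' protocols state that the RNA was taken from sorted cells. The comparison uses 8 of the 15 RNA libraries of the series, 4 of day 10 and 4 of day 3, chosen by the day in their column names. The labels list 1 sample for each day and do not say what the library numbers 1 to 4 stand for. The p-values below therefore measure the spread between libraries of a day, which may be technical, and say nothing of other cultures, clones or animals.

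The growth plate is the cartilage near the ends of growing bones. Its round, resting chondrocytes give rise to columns of dividing cells, which stop dividing and become prehypertrophic and then hypertrophic. Hypertrophic cells exchange a matrix of collagen II and aggrecan for one of collagen X, mineralize it, and are followed by bone-forming osteoblasts. Indian hedgehog from prehypertrophic cells and parathyroid hormone-related protein from resting cells regulate the pace of this sequence in a loop. The series' title places the cell line in work on genes of the round cell layer and human height.

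The values are in CPM, that is reads of a gene scaled to the size of its library. A library held 14544289 to 18841621 reads on day 10 and 12492537 to 18633097 on day 3, so 1 read was worth 0.0523 to 0.0787 CPM. Of 24499 genes in the table, 12109 passed a filter on low values (the means of days 1, 3, 5 and 10 had to average at least 1 CPM). A log2 difference is the mean of log2(CPM + 1) over the day 10 libraries minus that over the day 3 libraries, with its standard error (SE). It is positive where day 10 was higher, and it understates the change of genes that 1 of the days has near 0. A gene is said to have risen or fallen where its p-value, adjusted by the Benjamini-Hochberg method over all 12109 genes, was under 0.05 in limma, a linear model that shares information on spread between genes.

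Differences of 2-fold or more were mostly rises on day 10. On day 10, 1514 genes (12.5% of those tested) were higher and 1169 (9.65%) were lower than on day 3, 22.2% in either direction. This balance depended on the scaling, since in CPM without the TMM factor, a correction of the library size that the deposited values hold, 1313 genes were higher and 1539 lower. At least 2-fold differences were one-sided in both scalings, with 729 genes higher (6.02%) and 164 lower (1.35%), of which 656 and 153 also passed the test, and without the TMM factor 655 higher and 209 lower. Differences of 8-fold or more were found for 49 of the genes that rose and for 6 of those that fell. The median difference over all genes tested was -0.01 on the log2 scale. All 4 day 10 libraries stood above all 4 day 3 libraries for 1337 genes (11.0%) and below them for 1156 genes (9.55%). The day 5 mean lay between those of days 10 and 3 for 1241 of the genes that rose and 913 of those that fell.

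**Figure D1:**
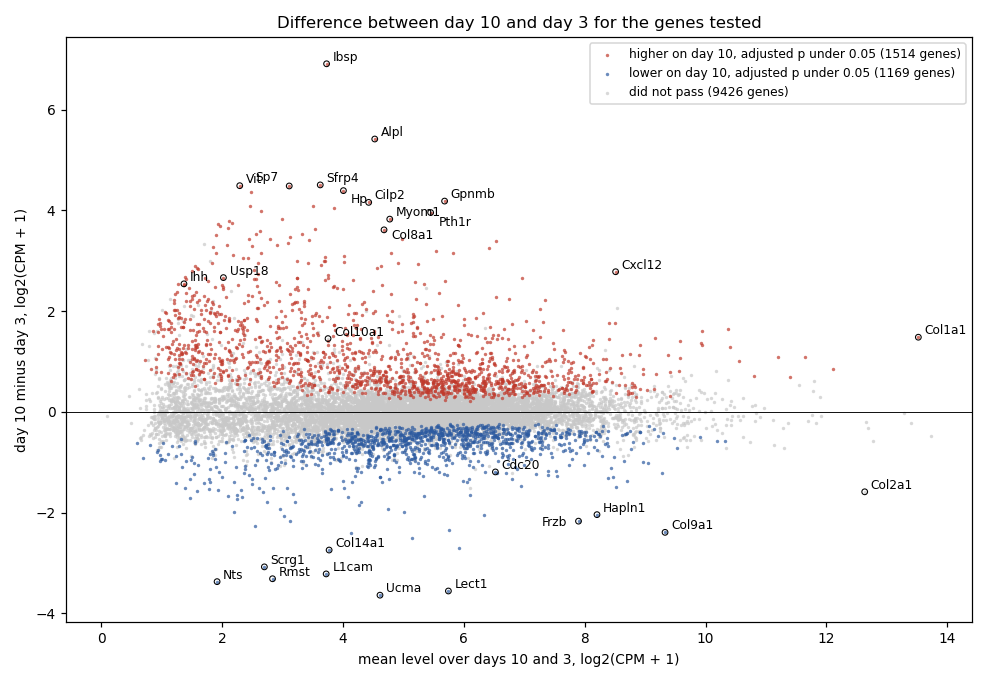
Each point is 1 of 12109 genes, placed by its mean level over days 10 and 3 (horizontal axis, log2(CPM + 1)) and its difference, day 10 minus day 3 (vertical axis, log2(CPM + 1)). The 1514 genes that rose are red, the 1169 that fell are blue, and a ring and a name mark 28 genes of the text. Ibsp and Alpl stood highest, at 6.91 and 5.42, and Ucma and Lect1 lowest, at -3.64 and -3.56.

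The libraries of a day were not equally alike. Pearson's r across genes on the log scale was 0.920 to 0.978 between libraries of day 10 and 0.972 to 0.987 between those of day 3, except for day 3 libraries 3 and 4, at 0.9971, which still differed by more than counting noise (chi-square of 4.93 per degree of freedom). The SD between libraries was larger on day 10 for 69% of genes. Counting libraries 3 and 4 of each day as 1 by their mean left 689 genes higher and 333 lower. Of the 121 called genes named in this text, 24 then no longer passed, namely Spp1, Col1a1, Grem1, Mgp, Sox9, Sox6, Wnt5b, Pappa, Cdc20, Nusap1, Ccne2, Lpl, Acta1, Isg15, Gbp3, Adamts5, Bglap, Col9a2, H2-D1, Irf7, Irf9, Stat2, Foxo1 and Nfatc1. Libraries 1 and 2 of both days alone gave 169 genes higher and 35 lower, and libraries 3 and 4 alone gave 2453 and 1952. Leaving out day 3 library 4 gave 1001 higher and 546 lower, and leaving out day 3 library 3 gave 616 lower. What the libraries share was not tested. Counts are therefore given below by library where the libraries of day 10 differed.

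Cartilage genes were expressed in every library, as the label of the cells implies. Col2a1, the collagen of cartilage fibrils, had 2135, 1262, 5271 and 12719 CPM in day 10 libraries 1 to 4, against 20254, 8379.8, 9532 and 9094 CPM in day 3 libraries 1 to 4. Acan (aggrecan, the main cartilage proteoglycan) had 162, 169, 394 and 702 CPM in the day 10 libraries, against 1051, 261, 471 and 452 CPM in the day 3 libraries. Sox9, the transcription factor that specifies chondrocytes, had 115, 64.8, 224 and 287 CPM on day 10, against 389, 226, 309 and 329.6 CPM on day 3. For each of the 3 genes the lowest libraries were day 10 libraries 1 and 2, and day 10 library 4 reached into the range of day 3 for Col2a1, Acan and Sox9. For Acan day 10 library 3 lay within that range too.

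Defining markers of cells from blood vessels, blood, muscle and nerve were at or near 0 on both days. Of 19 macrophage and osteoclast markers 16 were below the filter, with means of at most 0.732 CPM on day 10 and 0.726 CPM on day 3, and 8 of them at 0 in all libraries of both days, among them Tyrobp. The 3 tested ones (Cd68, Cd14 and Ctsk) did not pass, and summed to 21.6 to 53.5 CPM on day 10, against 17.0 to 26.4 CPM on day 3. Of 14 endothelial markers 12 were below the filter, with Pecam1 at 0.061 CPM on day 10 and 0.033 CPM on day 3, and the 2 tested summed to 16.6 to 30.3 CPM on day 10 and 21.2 to 27.8 CPM on day 3. Of 16 muscle markers 12 were below the filter, Myod1 and Myog at 0. The 4 tested summed to 16.9 to 26.7 CPM on day 10 and 11.2 to 14.3 CPM on day 3, and Acta1, the skeletal muscle actin, rose (log2 difference 1.84 ± 0.50, adjusted p = 0.0166), but did not pass without day 10 library 4 (adjusted p = 0.0532). Of 16 neural markers 12 were below the filter, Snap25 and Sox10 at 0. The 4 tested summed to 16.3 to 57.3 CPM on day 10 and 50.4 to 84.2 CPM on day 3, and 2 of the 4 fell, among them Map2, a microtubule protein (log2 difference -1.94 ± 0.22, adjusted p = 4.01e-05). Of 12 blood markers 11 were below the filter, and Itga2b, the integrin of platelets, rose (log2 difference 0.76 ± 0.16, adjusted p = 0.00469).

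Many tested genes of mineralization and bone matrix rose. Of 19 tested genes of the hypertrophic and mineralizing list 12 rose and 1 fell, beside 12.5% and 9.65% of all genes, and the list median was 1.46 beside -0.01 for all genes. Of 20 tested osteoblast and osteocyte genes 13 rose and 2 fell, with a median of 2.04. With libraries 3 and 4 of each day averaged, 8 genes of the first list and 11 of the second rose. With only the libraries of days 10 and 3 in the fit, 9 and 10 rose. The lists share 6 genes that rose (Ibsp, Alpl, Phex, Dmp1, Bglap and Bglap2). Bglap and Bglap2 are near-identical osteocalcin genes, so the split of their reads is uncertain, and Bglap did not pass without day 10 library 1 or 2 or without day 3 library 1, 2, 3 or 4 (adjusted p = 0.0668 to 0.105), with a difference of 1.23 (adjusted p = 0.0846) without day 10 library 2 beside 1.98 in all libraries. Sost and Mepe, which mark osteocytes, were below the filter, at means of 3.04 and 1.58 CPM on day 10 and 0.362 and 0.080 CPM on day 3.

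Ibsp (chr5:104299171-104311469 on GRCm38, plus strand), which encodes bone sialoprotein, a nucleator of mineral in bone and hypertrophic cartilage, rose most of all genes that the naming rule admits. It had 324, 1824, 35.5 and 19.7 CPM in day 10 libraries 1 to 4, against 0.221, 0.630, 0.0744 and 0 CPM in day 3 libraries 1 to 4. Every day 10 library was above every day 3 library, while day 10 library 2 held far more than libraries 3 and 4. Ibsp differed beyond the spread of the libraries (log2 difference 6.91 ± 1.12, adjusted p = 0.000659). Its mean was 0.0203 CPM on day 1 and 10.0 CPM on day 5.

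Alpl, the alkaline phosphatase that removes the mineralization inhibitor pyrophosphate, had 297, 664, 51.7 and 48.2 CPM in the day 10 libraries, against 1.99, 4.88, 2.08 and 1.85 CPM in the day 3 libraries (log2 difference 5.42 ± 0.82, adjusted p = 0.000391). The groups did not overlap, with day 10 library 2 highest again. Alpl did not move in 1 direction over the whole culture, since its mean was 38.9 CPM on day 1, 2.70 ± 1.46 on day 3, 8.21 on day 5 and 265 ± 290.4 on day 10. Sp7 (osterix), a transcription factor needed for osteoblasts, had 76.3, 214, 11.6 and 12.4 CPM on day 10, against 1.38, 1.102, 0.297 and 0.712 CPM on day 3 (log2 difference 4.48 ± 0.78, adjusted p = 0.0011). Runx2, the factor that acts before Sp7 in hypertrophic chondrocytes and osteoblasts, had 284, 442, 174 and 169 CPM on day 10, against 90.4, 90.1, 65.3 and 74.2 CPM on day 3 (log2 difference 1.63 ± 0.25, adjusted p = 0.000479). Both stood higher in every day 10 library than in any day 3 library, and highest in libraries 1 and 2.

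Some genes of phosphate handling rose too, in part the same genes. Of 12 tested genes of phosphate and pyrophosphate handling 5 rose, beside 12.5% of all genes, and the other 7 did not pass. Alpl and Phex are among the 5 and were already counted in the hypertrophic and the osteoblast lists. Smpd3 is also a member of the prehypertrophic list below. Phex, an endopeptidase that acts on phosphate balance and mineral, had 15.5, 58.4, 13.6 and 5.95 CPM in the day 10 libraries, against 1.05, 0.393, 0.669 and 0.570 CPM in the day 3 libraries (log2 difference 3.42 ± 0.46, adjusted p = 0.000156). Smpd3, a sphingomyelinase of matrix mineralization, had 331, 907, 109.8 and 146 CPM on day 10, against 49.0, 36.2, 15.9 and 17.9 CPM on day 3 (log2 difference 3.25 ± 0.66, adjusted p = 0.00328). Phospho1, a phosphatase of matrix vesicles, had 161, 592, 75.3 and 111 CPM on day 10, against 20.6, 17.9, 15.7 and 18.0 CPM on day 3 (log2 difference 3.16 ± 0.43, adjusted p = 0.000166). Galnt3, a glycosyltransferase that protects the phosphate hormone Fgf23, rose as well (log2 difference 2.96 ± 0.64, adjusted p = 0.00516). For all 4 the libraries of the days did not overlap, and day 10 library 2 was the highest.

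**Figure D2:**
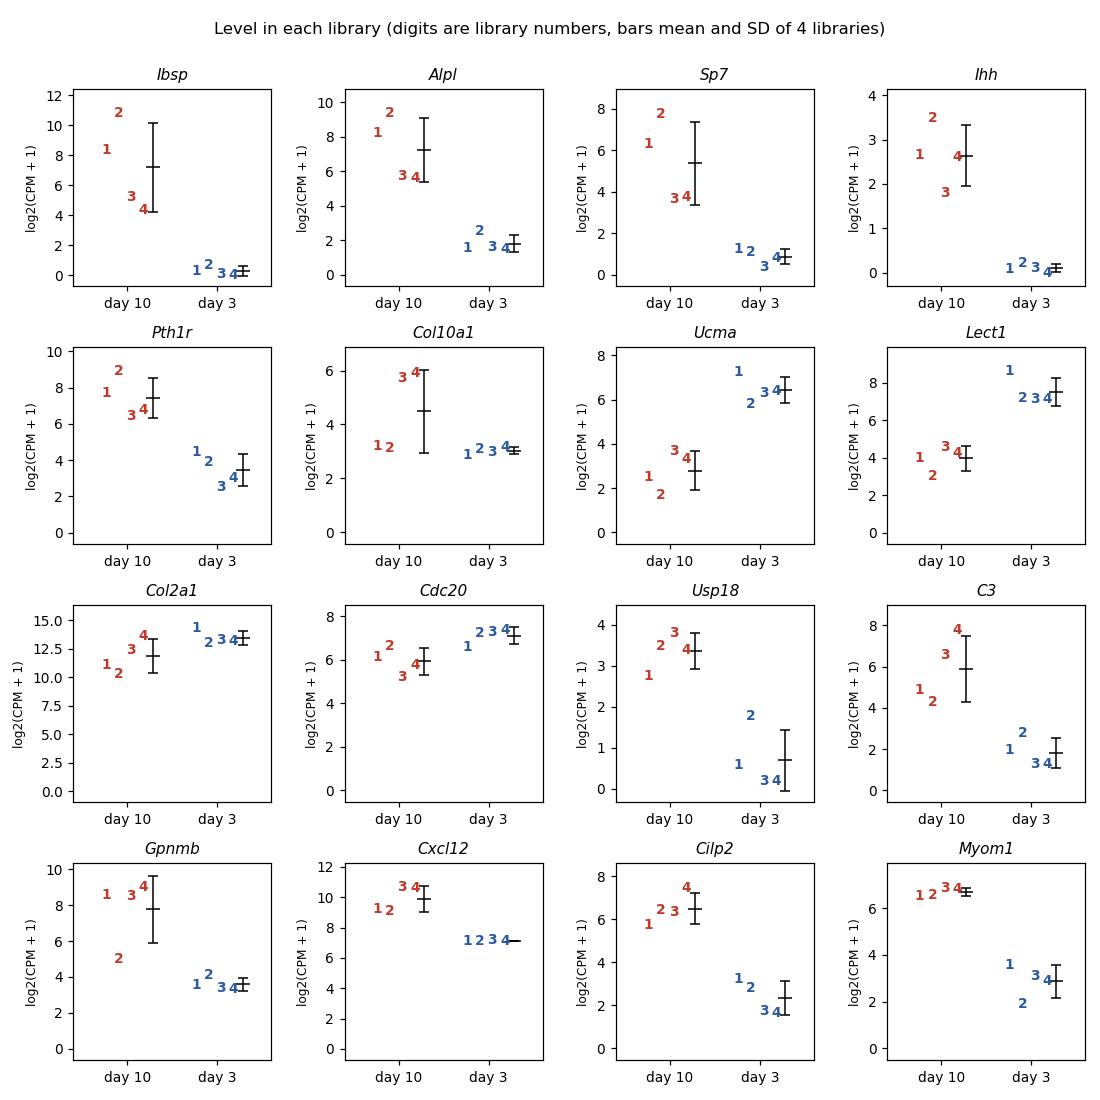
Level of 16 genes in each library (log2(CPM + 1)), day 10 in red on the left and day 3 in blue on the right of each panel. Digits are library numbers, and the bar is the mean with the SD of 4 libraries. Ibsp, Alpl and Sp7 stood highest in day 10 libraries 2 and 1, C3 and Col10a1 in day 10 libraries 4 and 3, and Gpnmb lay at its day 10 low in library 2.

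Mmp13, the collagenase of hypertrophic cartilage, had 20.7, 29.6, 11.8 and 3.46 CPM in the day 10 libraries, against 0.0552, 0, 0 and 0.142 CPM in the day 3 libraries (log2 difference 3.74 ± 0.45, adjusted p = 5.65e-05), where 3 reads in all were counted on day 3. Spp1 (osteopontin), a phosphoprotein of mineralizing matrix, had 510.4, 749, 719.9 and 604 CPM on day 10, against 289.9, 467, 222 and 227 CPM on day 3 (log2 difference 1.15 ± 0.30, adjusted p = 0.0129). Of its exon bases 18.8% are shared with Gm42793 on the same strand. The 4 day 10 values of Spp1 lay closer together than those of Ibsp and all above day 3. Their promoters are shown because both hold the core letters of a site for Runx factors, TGTGGT or ACCACA on the other strand. The windows run from 250 bases before to 50 after the start of the gene, from RefSeq on GRCm38.p6, with the matching letters in capitals. The Mmp13 window is chr9:7272264-7272563 on the plus strand and the Spp1 window chr5:104434861-104435160 on the plus strand.
Mmp13: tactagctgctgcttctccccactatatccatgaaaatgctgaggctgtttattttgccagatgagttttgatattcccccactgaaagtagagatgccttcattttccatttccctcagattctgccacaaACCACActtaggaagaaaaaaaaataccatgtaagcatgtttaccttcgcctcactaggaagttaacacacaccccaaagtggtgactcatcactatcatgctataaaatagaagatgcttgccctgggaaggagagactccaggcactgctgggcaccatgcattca
Spp1: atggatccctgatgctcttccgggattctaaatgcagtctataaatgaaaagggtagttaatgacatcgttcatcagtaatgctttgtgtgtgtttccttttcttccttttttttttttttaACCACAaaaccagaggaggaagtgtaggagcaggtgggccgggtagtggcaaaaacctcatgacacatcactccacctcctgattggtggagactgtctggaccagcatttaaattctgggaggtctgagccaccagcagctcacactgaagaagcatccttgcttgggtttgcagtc
These letters were found in 3 of 9 matched promoters (33.3%) of hypertrophic and mineralizing genes that rose, in 2 of 7 (28.6%) of the osteoblast list's genes that rose, and in 4572 of 27018 promoters in all (16.9%). Over all tested members, whether or not they rose, the shares were 5 of 15 (33.3%) and 3 of 14 (21.4%) for the 2 lists. A match describes the letters in the window and does not show that a factor binds there.

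Bone collagen genes were highest in day 10 library 2 too. Col1a1, the main chain of collagen I, had 15623, 61215, 7793 and 20013 CPM in the day 10 libraries, against 9414, 9857, 5288 and 4988 CPM in the day 3 libraries (log2 difference 1.48 ± 0.50, adjusted p = 0.0434). Day 10 library 3 lay within the range of day 3. Col1a1 no longer passed without day 10 library 1, 2 or 4 or without day 3 library 3 or 4 (adjusted p = 0.0511 to 0.125), and without day 10 library 2 its difference was 0.94 (adjusted p = 0.0843). Col1a2, the second chain, had 1122, 7766, 144 and 258 CPM on day 10, against 199.6, 322, 126 and 130.2 CPM on day 3, and did not pass (log2 difference 2.06 ± 0.86, adjusted p = 0.0961), except without day 10 library 3 (adjusted p = 0.0213). Creb3l1 (OASIS), a transcription factor of the endoplasmic reticulum that acts on collagen I in osteoblasts, rose in every library, with 92.8, 361, 18.5 and 30.7 CPM on day 10, against 11.6, 10.15, 6.54 and 5.41 CPM on day 3 (log2 difference 2.90 ± 0.65, adjusted p = 0.00605). S100a1, a calcium-binding protein, was the gene that fell in the hypertrophic and mineralizing list. It had 10.6, 12.7, 13.3 and 8.66 CPM on day 10 and 22.3, 29.0, 17.8 and 19.4 CPM on day 3 (log2 difference -0.90 ± 0.16, adjusted p = 0.0012). The 2 genes that fell in the osteoblast and osteocyte list are not reported here.

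Several genes of the hedgehog and PTHrP loop rose too, among them receptors and targets, while a co-receptor fell. Of 14 tested genes of that list 7 rose and 2 fell, beside 12.5% and 9.65% of all genes. Of 17 prehypertrophic genes 9 rose and the other 8 did not pass. The list medians were 0.46 and 1.47. The prehypertrophic list shares Pth1r with the hedgehog list and Sp7 with the osteoblast list. Pth1r, to which parathyroid hormone-related protein binds, had 204, 475, 83.7 and 106 CPM in the day 10 libraries, against 20.99, 14.1, 4.69 and 7.05 CPM in the day 3 libraries (log2 difference 3.96 ± 0.49, adjusted p = 7.09e-05). Ihh, the ligand Indian hedgehog, had 5.32, 10.27, 2.46 and 5.12 CPM on day 10, against 0.0552, 0.157, 0.0744 and 0 CPM on day 3, where 4 reads were counted in all (log2 difference 2.54 ± 0.30, adjusted p = 5.32e-05). Neither gene overlapped between the days, and both were highest in day 10 library 2.

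The hedgehog target genes Gli1 and Ptch1, a transcription factor and the hedgehog receptor, rose with the ligand. Gli1 had 46.7, 72.0, 23.6 and 22.9 CPM in the day 10 libraries, against 2.32, 2.44, 5.21 and 4.77 CPM in the day 3 libraries (log2 difference 3.07 ± 0.37, adjusted p = 5.6e-05), and Ptch1 had 166, 278, 77.7 and 92.6 CPM on day 10, against 57.7, 39.0, 48.8 and 48.8 CPM on day 3 (log2 difference 1.47 ± 0.28, adjusted p = 0.00235). Gli2, another factor of the pathway, rose by less (log2 difference 1.18 ± 0.22, adjusted p = 0.00164), and Gas1, a co-receptor, fell (log2 difference -0.996 ± 0.21, adjusted p = 0.00493). Pthlh, the PTHrP ligand, stood near the filter on both days, with 2.09, 1.49, 2.04 and 1.81 CPM on day 10 and 0.608, 1.42, 0.892 and 1.28 CPM on day 3, and did not pass (log2 difference 0.49 ± 0.19, adjusted p = 0.0762). Every day 10 library of Pthlh was nevertheless above every day 3 library.

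Cd200, a surface protein used to sort late chondrocytes, rose (log2 difference 2.45 ± 0.64, adjusted p = 0.0144), with a value of 1.61 (adjusted p = 0.011) without day 10 library 2. It had 46.6, 211, 17.2 and 9.72 CPM in day 10 libraries 1 to 4, against a mean of 6.26 CPM on day 3. The days overlapped, since day 10 library 4 stood below day 3 library 1. Cd200 passed with any single library left out. It did not pass with only the libraries of days 10 and 3 in the fit (adjusted p = 0.0682). Nor did it pass without library 1 of all days (adjusted p = 0.0605) or without library 3 of all days (adjusted p = 0.0712). Fgfr3, the FGF receptor that restrains growth plate chondrocytes, had 66.5, 130.0, 102 and 144 CPM on day 10 and 131, 98.8, 127 and 119 CPM on day 3 and did not pass (log2 difference -0.16 ± 0.22, adjusted p = 0.628). Col10a1, the collagen of hypertrophic cartilage, went with other libraries than Ibsp. It had 8.11, 7.63, 51.2 and 59.6 CPM in day 10 libraries 1 to 4, against 6.24, 7.55, 6.92 and 7.98 CPM in day 3 libraries 1 to 4, so day 10 libraries 3 and 4 were far above day 3 while libraries 1 and 2 lay at its level. The difference did not pass (log2 difference 1.45 ± 0.53, adjusted p = 0.0622), but it passed without day 10 library 1, at 1.89 (adjusted p = 0.0194), or without day 10 library 2, at 1.91 (adjusted p = 0.0127). On day 1 the mean of Col10a1 was 164 CPM and on day 5 it was 5.17 CPM, so its day 3 level was already low.

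Some markers of round and resting chondrocytes and some cartilage matrix genes fell. Of 10 tested resting and round chondrocyte genes 4 fell and 1 rose, with a list median of -0.42. Of 24 cartilage matrix genes 8 fell and 3 rose, with a median of -0.58. Over all genes 9.65% fell and 12.5% rose. The cartilage matrix median was -0.28 without day 3 library 1, and in libraries 3 and 4 alone 7 genes fell and 7 rose, with a median of 0.015. Ucma (chr2:4976122-4985748 on GRCm38, plus strand), the unique cartilage matrix-associated protein of the upper growth plate, had 4.75, 2.18, 11.8 and 8.89 CPM in the day 10 libraries, against 152, 55.0, 77.4 and 82.0 CPM in the day 3 libraries (log2 difference -3.64 ± 0.45, adjusted p = 7.15e-05). Lect1, the older symbol of Cnmd, encodes chondromodulin, an inhibitor of vessel growth in cartilage. It had 14.6, 7.23, 23.1 and 18.3 CPM on day 10, against 393, 145, 142 and 138 CPM on day 3 (log2 difference -3.56 ± 0.41, adjusted p = 4.43e-05). For both genes the highest day 10 library was below the lowest of day 3.

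Scrg1, a secreted protein of cartilage, had 0.760, 0.918, 1.57 and 1.88 CPM in the day 10 libraries, against 30.6, 21.3, 12.6 and 12.2 CPM in the day 3 libraries (log2 difference -3.08 ± 0.32, adjusted p = 3.16e-05). Hapln1, the link protein that ties aggrecan to hyaluronan, fell to 165 ± 93.5 CPM on day 10, against 613 ± 173 CPM on day 3 (mean ± SD, n = 4 libraries each; log2 difference -2.04 ± 0.42, adjusted p = 0.00383). Col9a1, a chain of collagen IX on the surface of collagen II fibrils, had 209, 168, 335 and 521 CPM on day 10, against 2483, 1602, 1109 and 1068 CPM on day 3 (log2 difference -2.39 ± 0.37, adjusted p = 0.000504). The other chains, Col9a2 and Col9a3, fell as well (log2 difference -1.53 ± 0.45, adjusted p = 0.0253 for Col9a2 and log2 difference -1.797 ± 0.36, adjusted p = 0.0029 for Col9a3), and Col9a2 did not pass without day 10 library 3 or 4 or without day 3 library 1 (adjusted p = 0.0516 to 0.0697). Matn3, a cartilage matrilin, fell too (log2 difference -1.63 ± 0.26, adjusted p = 0.000654). In each of these 6 genes all day 10 libraries lay below all day 3 libraries.

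Col2a1 and Acan did not pass. Col2a1 missed the threshold narrowly (log2 difference -1.59 ± 0.56, adjusted p = 0.0542), and without day 10 library 4 it passed, at -2.19 (adjusted p = 0.0061). Acan was further from it (log2 difference -0.73 ± 0.51, adjusted p = 0.312), as were Col11a1 of collagen XI (log2 difference -0.70 ± 0.45, adjusted p = 0.27) and Matn1, matrilin-1 (log2 difference -1.50 ± 0.73, adjusted p = 0.145). In all 4 genes day 10 libraries 3 and 4 were above day 10 libraries 1 and 2, and the 2 days overlapped. Grem1, a BMP antagonist that marks skeletal progenitors, fell in limma (log2 difference -2.71 ± 0.85, adjusted p = 0.0332) but had 21.1, 1.15, 74.7 and 88.0 CPM on day 10, against 239, 83.9, 167 and 170.3 CPM on day 3, with library 2 of each day lowest and library 4 of day 10 above library 2 of day 3. It did not pass without day 10 library 1 or without day 3 library 1, 3 or 4 (adjusted p = 0.0569 to 0.0785), and without day 10 library 2 its difference was -1.55 (adjusted p = 0.0282).

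Other matrix genes went up at the same time. Cilp2 and Cilp, proteins of the interterritorial matrix of adult cartilage, and Comp, the cartilage oligomeric matrix protein, rose. Cilp2 had 52.2, 87.0, 80.9 and 177 CPM in the day 10 libraries, against 8.23, 5.98, 2.31 and 2.14 CPM in the day 3 libraries (log2 difference 4.16 ± 0.36, adjusted p = 4.79e-06). Cilp averaged 39.0 ± 18.5 CPM on day 10 and 3.88 ± 2.04 CPM on day 3 (log2 difference 2.99 ± 0.46, adjusted p = 0.000446), and Comp 127 ± 33.8 CPM on day 10 and 30.3 ± 14.7 CPM on day 3 (log2 difference 2.11 ± 0.37, adjusted p = 0.00118; SD, n = 4 libraries each). All 3 separated the days without overlap. Mgp, matrix Gla protein, an inhibitor of calcification that is also made by resting chondrocytes, rose (log2 difference 1.54 ± 0.39, adjusted p = 0.0121), although day 10 libraries 1 and 4, at 83.0 and 91.4 CPM, stood below day 3 library 2, at 92.9 CPM. Its day 5 mean of 232 CPM was above that of day 10.

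Among the 13 tested chondrogenic regulators 4 fell and 1 rose, beside 9.65% and 12.5% of all genes. With libraries 3 and 4 averaged 1 fell and 0 rose. Sox6, the partner of Sox9 and Sox5, fell (log2 difference -0.87 ± 0.23, adjusted p = 0.0135). Sox9 passed narrowly (log2 difference -1.05 ± 0.36, adjusted p = 0.0464). It no longer did without day 10 library 1 or 2 or without day 3 library 1, 3 or 4 (adjusted p = 0.0945 to 0.105), and without day 10 library 2 its difference was -0.65 (adjusted p = 0.0985). Sox5 did not pass (log2 difference -0.60 ± 0.22, adjusted p = 0.063), and passed without day 3 library 2, at -0.80 (adjusted p = 0.0157). Of 13 tested genes of joint and superficial cartilage 3 fell and 2 rose, beside 9.65% and 12.5% of all genes, with a median of 0.02 that turned sign without day 10 library 4, without day 3 library 2 and without the TMM factor. Osr1, a transcription factor, and Enpp2, a lipid enzyme, fell, Osr1 to 40.1, 26.1, 38.9 and 49.5 CPM in the day 10 libraries, against 115, 110.5, 128 and 128 CPM in the day 3 libraries (log2 difference -1.65 ± 0.18, adjusted p = 3.17e-05), and Enpp2 by less (log2 difference -1.49 ± 0.26, adjusted p = 0.00123). Nfatc1 and Foxo1, both transcription factors, rose (log2 difference 0.73 ± 0.22, adjusted p = 0.0253 for Nfatc1 and log2 difference 0.48 ± 0.15, adjusted p = 0.0301 for Foxo1). Nfatc1 did not pass without day 10 library 1 or 2 or without day 3 library 3 or 4 (adjusted p = 0.0518 to 0.0878), and Foxo1 did not pass without day 10 library 3 or 4 or without day 3 library 2, 3 or 4 (adjusted p = 0.0526 to 0.0802).

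Synthesis of glycosaminoglycans, the sugar chains of proteoglycans, changed gene by gene, with 5 of 24 tested members higher and 5 lower, beside 12.5% and 9.65% of all genes. Papss2, which makes the sulfate donor that cartilage uses for its chains, had 16.7, 36.9, 21.1 and 16.8 CPM in the day 10 libraries, against 101, 58.6, 63.4 and 66.8 CPM in the day 3 libraries (log2 difference -1.66 ± 0.29, adjusted p = 0.00108). Has2, a hyaluronan synthase, fell (log2 difference -1.64 ± 0.26, adjusted p = 0.000516), and so did Csgalnact1, which starts chondroitin chains (log2 difference -1.22 ± 0.27, adjusted p = 0.00535). In contrast Chst15, which adds a second sulfate to chondroitin sulfate, had 19.9, 37.1, 18.4 and 16.4 CPM on day 10, against 1.05, 1.02, 0.521 and 2.14 CPM on day 3 (log2 difference 3.43 ± 0.26, adjusted p = 1.22e-06). Cemip, a protein that breaks down hyaluronan, was at 61.0, 63.1, 9.63 and 8.81 CPM on day 10, against 0.497, 0.315, 0.0744 and 0.0712 CPM on day 3 (log2 difference 4.37 ± 0.53, adjusted p = 6.54e-05). The days did not overlap for any of these 5 genes.

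**Figure D3:**
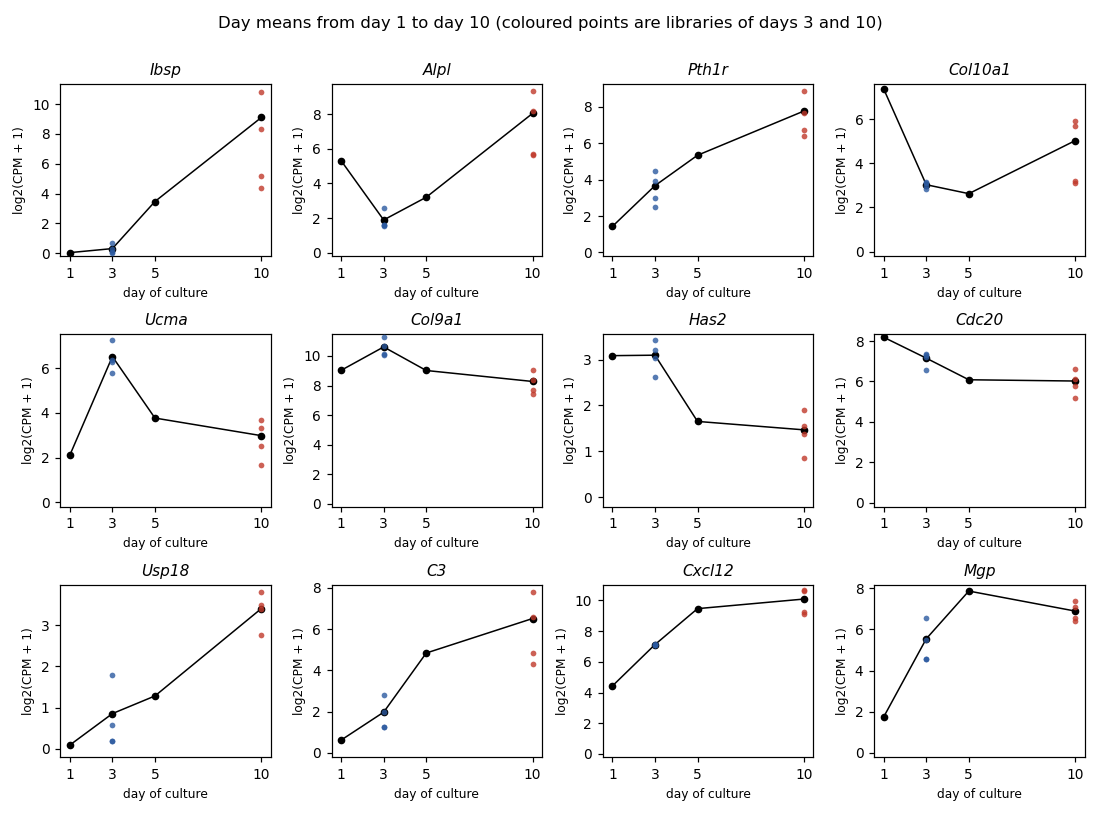
Means of days 1, 3, 5 and 10 (black, log2 of the mean CPM + 1, day of culture on the horizontal axis) for 12 genes, with the single libraries of day 3 in blue and of day 10 in red. Ibsp, Pth1r, Usp18, C3 and Cxcl12 went up at each step, Ucma and Col9a1 peaked on day 3, and Alpl and Col10a1 were low on days 3 and 5.

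Cell cycle genes were lower on day 10, and the decrease lay mainly in libraries 3 and 4. Over all genes 9.65% fell. Of 35 tested genes of the G2 and M phases 22 fell and the other 13 did not pass, with a list median of -0.79. Of 35 genes of S phase 16 fell (median -0.43), as did 14 of 36 replication-dependent histone genes (median -0.75). The median over the G2 and M genes was -0.51, -0.19, -1.15 and -1.36 in day 10 libraries 1 to 4 relative to the mean of day 3, and -0.45, -0.08, 0.25 and 0.28 in day 3 libraries 1 to 4. Day 10 libraries 3 and 4 stood below all other libraries, and day 10 library 2 lay within the range of day 3. For 3 of the 35 genes the 4 libraries of day 10 were all below the 4 of day 3, a share near the 9.55% of all genes.

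Cdc20, an activator of the anaphase-promoting complex, had 68.8, 97.6, 35.8 and 53.02 CPM in day 10 libraries 1 to 4, against 94.1, 148, 157 and 166 CPM in day 3 libraries 1 to 4 (log2 difference -1.19 ± 0.25, adjusted p = 0.00371). Ube2c, a ubiquitin-conjugating enzyme of the same complex, had 47.7, 64.3, 37.2 and 18.6 CPM on day 10, against 68.6, 102, 120.3 and 124 CPM on day 3 (log2 difference -1.38 ± 0.28, adjusted p = 0.00355). Ube2c did not overlap between the days, while Cdc20 did through day 10 library 2 and day 3 library 1. Nusap1, a spindle protein, and the cyclin Ccne2 fell as well (log2 difference -1.27 ± 0.32, adjusted p = 0.0123 for Nusap1 and log2 difference -1.19 ± 0.29, adjusted p = 0.0104 for Ccne2). Of exon bases, 22.8% of Ube2c are shared with Tnnc2 on the other strand, which averaged 9.87 CPM on day 10 and 9.23 CPM on day 3, and 17.4% of Ccne2 with Ints8, which averaged 51.3 CPM on day 10 and 58.2 CPM on day 3. Since the strand setting of the counting is not given, reads of such pairs cannot be told apart. Mki67, the common marker of dividing cells, did not pass (log2 difference -0.49 ± 0.36, adjusted p = 0.344), with 352, 415, 176 and 166 CPM on day 10 and 352, 229, 453 and 460.2 CPM on day 3.

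The counts of these lists rest on few libraries. Histone reads can also fall on near-identical copies, so their split is uncertain. The count of G2 and M genes that fell was 7 and 6 without day 10 library 3 and 4, and 5 without either of day 3 libraries 3 and 4. For S phase it was 7 without either of those day 3 libraries. For the histones it was 30 without day 10 library 2 and 27 without day 3 library 1, 6 and 5 without day 10 library 3 and 4, and 5, 3 and 3 without day 3 library 2, 3 and 4. With libraries 3 and 4 averaged, 1 G2 and M gene, 2 S phase genes and 0 histone genes passed. With only the libraries of days 10 and 3 in the fit, which leaves out the spread shared with days 1 and 5, 2 G2 and M genes, 4 S phase genes and 1 histone gene passed. In libraries 3 and 4 alone all 35 G2 and M genes passed (median -1.58), and in libraries 1 and 2 alone their median was -0.07. In bulk RNA fewer dividing cells and less of these transcripts per cell cannot be told apart.

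Some regulators of the cycle separated the days in all libraries. Cdkn2c, the CDK inhibitor p18, had 61.2, 48.4, 49.1 and 53.1 CPM in the day 10 libraries, against 82.7, 108, 90.9 and 94.4 CPM in the day 3 libraries (log2 difference -0.82 ± 0.12, adjusted p = 0.000271), and Ccne1, cyclin E1, 13.3, 14.3, 10.9 and 11.1 CPM on day 10, against 18.1, 23.3, 25.4 and 23.4 CPM on day 3 (log2 difference -0.81 ± 0.15, adjusted p = 0.00137). Rbl2, the pocket protein p130 of resting cells, rose (log2 difference 0.46 ± 0.09, adjusted p = 0.00351), with all day 10 libraries above all of day 3. Prim1, the primase subunit, fell (log2 difference -0.82 ± 0.20, adjusted p = 0.0092). Cdkn1a, the inhibitor p21, was at 44.6, 206, 30.8 and 35.8 CPM on day 10 and 29.3, 24.9, 28.6 and 28.8 CPM on day 3, and did not pass (log2 difference 1.00 ± 0.42, adjusted p = 0.0956), except without day 10 library 3 (adjusted p = 0.0435).

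Promoters of the G2 and M genes often hold the letters of the cell cycle homology region, TTTGAA or TTCAAA on the other strand, through which these genes are repressed in resting cells. Those of Ube2c and Cdc20 are shown as 2 of the genes that fell most, with the letters in capitals, from RefSeq on GRCm38.p6. The Ube2c window is chr2:164769679-164769978 on the plus strand, and the Cdc20 window is chr4:118437294-118437593 on the minus strand.
Ube2c: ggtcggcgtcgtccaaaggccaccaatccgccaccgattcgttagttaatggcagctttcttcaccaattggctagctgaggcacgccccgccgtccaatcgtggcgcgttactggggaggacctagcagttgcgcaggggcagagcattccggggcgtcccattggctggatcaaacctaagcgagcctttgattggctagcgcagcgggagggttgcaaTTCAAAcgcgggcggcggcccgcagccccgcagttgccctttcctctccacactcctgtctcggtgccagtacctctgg
Cdc20: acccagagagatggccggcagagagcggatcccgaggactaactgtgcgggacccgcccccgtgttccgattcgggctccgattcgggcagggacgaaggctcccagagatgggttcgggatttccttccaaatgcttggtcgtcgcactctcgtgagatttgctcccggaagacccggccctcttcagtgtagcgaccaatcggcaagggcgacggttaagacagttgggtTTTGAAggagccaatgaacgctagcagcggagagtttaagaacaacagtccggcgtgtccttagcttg
The letters stood 29 and 18 bases before the annotated start. They were found in 14 of 21 matched promoters (66.7%) of G2 and M genes that fell, in 21 of 31 (67.7%) of all tested members, and in 4892 of 27018 promoters in all (18.1%). The share was thus alike whether or not a member passed.

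Genes of Wnt signalling, which steers chondrocytes and osteoblasts, rose in part. Of 26 tested 14 rose and 2 fell, beside 12.5% and 9.65% of all genes, with a median of 0.56. Without either of day 3 libraries 3 and 4, 8 rose. Secreted antagonists moved in both directions. Sfrp4 had 24.5, 32.1, 123 and 113 CPM in the day 10 libraries, against 1.49, 2.75, 1.49 and 0.926 CPM in the day 3 libraries (log2 difference 4.51 ± 0.43, adjusted p = 1.1e-05), and Dkk2 had 21.6, 56.4, 23.3 and 24.9 CPM on day 10, against 1.93, 2.44, 0.669 and 0.214 CPM on day 3 (log2 difference 3.82 ± 0.55, adjusted p = 0.000284). Sfrp4 was highest in day 10 libraries 3 and 4 and Dkk2 in library 2. Frzb, the antagonist of articular and resting cartilage, fell to 111, 36.2, 209 and 182 CPM in the day 10 libraries, against 745, 455, 439 and 437 CPM in the day 3 libraries (log2 difference -2.17 ± 0.44, adjusted p = 0.00356).

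Among ligands and receptors, Wnt5a rose (log2 difference 1.92 ± 0.30, adjusted p = 0.000514) while Wnt5b fell (log2 difference -0.96 ± 0.23, adjusted p = 0.00966), both ligands that act outside the beta-catenin branch in growth plate cartilage. The R-spondin receptor Lgr5 had 338, 158, 545 and 522 CPM on day 10, against 86.3, 40.5, 95.3 and 91.5 CPM on day 3 (log2 difference 2.22 ± 0.33, adjusted p = 0.00032), and the frizzled receptor Fzd1 rose (log2 difference 1.33 ± 0.27, adjusted p = 0.003). Tcf7, a transcription factor at the end of the beta-catenin branch, had 84.9, 195, 7.69 and 6.33 CPM in the day 10 libraries, against 3.76, 5.27, 3.42 and 4.70 CPM in the day 3 libraries (log2 difference 2.62 ± 0.79, adjusted p = 0.0278). Libraries 1 and 2 of day 10 were far above day 3 and libraries 3 and 4 little above it. Tcf7 no longer passed without day 10 library 1 or 2 or without day 3 library 1, 3 or 4 (adjusted p = 0.0514 to 0.073).

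Of 26 tested genes of BMP and TGF-beta signalling 10 rose and 1 fell, beside 12.5% and 9.65% of all genes. With libraries 3 and 4 averaged 6 rose. The count that fell was 3 without day 10 library 3 or 4 or without day 3 library 2. Fst, the activin and BMP antagonist follistatin, had 38.9, 24.2, 43.8 and 30.7 CPM in the day 10 libraries, against 5.25, 7.63, 2.53 and 2.92 CPM in the day 3 libraries (log2 difference 2.73 ± 0.32, adjusted p = 4.64e-05). Tgfbr3, a co-receptor for TGF-beta, had 138, 142, 149 and 189.7 CPM on day 10, against 69.7, 64.2, 46.4 and 45.8 CPM on day 3 (log2 difference 1.45 ± 0.20, adjusted p = 0.00017). Both genes separated the days in all libraries.

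In the axis of growth hormone and IGF, 7 of 13 tested genes rose and 1 fell, beside 12.5% and 9.65% of all genes. With libraries 3 and 4 averaged 3 rose. Igf1, the growth factor, had 4.56, 26.4, 3.19 and 3.84 CPM in the day 10 libraries, against 0.387, 0.157, 0.892 and 0.997 CPM in the day 3 libraries (log2 difference 2.25 ± 0.46, adjusted p = 0.00338), with library 2 of day 10 well above the others. Igfbp7 averaged 85.0 ± 20.7 CPM on day 10 and 10.53 ± 4.93 CPM on day 3 (SD, n = 4 libraries each; log2 difference 2.96 ± 0.29, adjusted p = 1.51e-05). Igfbp4, an IGF-binding protein, rose (log2 difference 1.64 ± 0.28, adjusted p = 0.00102), and so did Pappa, the protease that cleaves it (log2 difference 1.99 ± 0.45, adjusted p = 0.00688). Day 10 library 2 of Pappa, at 3.96 CPM, lay within the range of day 3. Ghr, the growth hormone receptor, did not pass (log2 difference 0.15 ± 0.16, adjusted p = 0.541). Of 13 genes of FGF signalling and its feedback 6 rose, beside 12.5% of all genes, and the other 7 did not pass. The largest rise was that of Dusp4, a phosphatase that switches off MAP kinases, with 4.62, 5.34, 7.32 and 13.6 CPM on day 10, against 0.166, 0.0787, 0.149 and 0.142 CPM on day 3 (log2 difference 2.84 ± 0.31, adjusted p = 3.16e-05). Spred2, another inhibitor of the pathway, rose with it (log2 difference 1.07 ± 0.19, adjusted p = 0.00131), and 3 of the 13 genes rose with libraries 3 and 4 averaged.

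Most interferon-stimulated genes rose. Of 28 tested genes of the interferon response and MHC class I 21 rose, beside 12.5% of all genes. The other 7 did not pass, and the median was 1.16. For 17 of the 28 all day 10 libraries stood above day 3, beside 11.0% of all genes. Usp18, which restrains interferon signalling, had 5.76, 10.22, 12.9 and 9.41 CPM in the day 10 libraries, against 0.497, 2.44, 0.149 and 0.142 CPM in the day 3 libraries (log2 difference 2.67 ± 0.41, adjusted p = 0.000497). Oasl2, a relative of the RNA-sensing oligoadenylate synthetases, had 8.74, 12.6, 20.8 and 19.3 CPM on day 10, against 1.38, 2.68, 0.744 and 0.926 CPM on day 3 (log2 difference 2.74 ± 0.44, adjusted p = 0.000643). Ifi27 averaged 46.4 ± 17.9 CPM on day 10 and 6.87 ± 3.95 CPM on day 3 (SD, n = 4 libraries each; log2 difference 2.61 ± 0.38, adjusted p = 0.000285). In these 3 genes day 3 library 2 was the highest of day 3, and still below each day 10 library.

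Transcription factors of the pathway were among the genes that rose. Irf7, which interferon induces, rose (log2 difference 2.52 ± 0.54, adjusted p = 0.00491), and Stat2 and Irf9 rose by 1.11 and 1.05 on the log2 scale. Of the MHC class I chain H2-D1, 89.1, 245, 71.4 and 100.2 CPM were measured in the day 10 libraries, against 48.1, 67.2, 40.0 and 43.1 CPM in the day 3 libraries (log2 difference 1.19 ± 0.34, adjusted p = 0.0222), which did not pass without day 3 library 3 or 4 (adjusted p = 0.0647 to 0.0677), while its partner B2m did not pass (log2 difference 0.26 ± 0.17, adjusted p = 0.302). Reads of the MHC genes and of the Ifit and Gbp families can fall on near-identical copies, so the split between members is uncertain. With libraries 3 and 4 averaged 8 of the 28 genes passed, and the list median was then 1.15. The median was 0.90, 1.38, 1.59 and 1.52 in day 10 libraries 1 to 4, and -0.02, 0.65, -0.27 and -0.30 in day 3 libraries 1 to 4.

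Promoters of 2 members that rose are shown because they hold the interferon-stimulated response element, searched as GAAA, any 2 bases and GAAA again, or as TTTC, any 2 bases and TTTC on the other strand. This motif was chosen after the rise of the list had been seen. Isg15, a ubiquitin-like protein, rose (log2 difference 1.87 ± 0.48, adjusted p = 0.0127) and so did Gbp3, a guanylate-binding protein (log2 difference 2.32 ± 0.45, adjusted p = 0.00255). The Isg15 window is chr4:156200769-156201068 on the minus strand and the Gbp3 window chr3:142559794-142560093 on the plus strand, both from RefSeq on GRCm38.p6.
Isg15: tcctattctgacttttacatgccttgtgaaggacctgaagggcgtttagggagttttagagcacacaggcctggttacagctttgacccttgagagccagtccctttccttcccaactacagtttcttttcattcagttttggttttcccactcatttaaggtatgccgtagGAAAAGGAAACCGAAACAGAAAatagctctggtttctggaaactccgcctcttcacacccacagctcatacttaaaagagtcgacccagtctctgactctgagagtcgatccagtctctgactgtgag
Gbp3: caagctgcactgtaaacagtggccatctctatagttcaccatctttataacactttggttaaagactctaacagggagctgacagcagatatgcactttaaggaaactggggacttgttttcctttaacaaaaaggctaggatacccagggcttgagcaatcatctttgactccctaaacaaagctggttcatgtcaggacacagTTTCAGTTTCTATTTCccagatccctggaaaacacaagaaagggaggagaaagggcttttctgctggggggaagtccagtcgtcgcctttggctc
Matches that overlap each other were counted, which gave 3 in the Isg15 window and 2 in the Gbp3 window. Matches were found in 9 of 17 matched promoters (52.9%) of members that rose, in 11 of 23 (47.8%) of all tested members, and in 943 of 27018 promoters in all (3.5%).

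Complement and acute phase genes rose too, in 7 of 10 tested, beside 12.5% of all genes, with a list median of 1.89. C3, the central complement component, had 27.9, 18.7, 95.0 and 222 CPM in the day 10 libraries, against 2.93, 5.98, 1.41 and 1.42 CPM in the day 3 libraries (log2 difference 4.05 ± 0.59, adjusted p = 0.000281). Hp, haptoglobin, had 66.2, 26.2, 102 and 156 CPM on day 10, against 5.41, 5.67, 1.49 and 0.427 CPM on day 3 (log2 difference 4.39 ± 0.56, adjusted p = 9.32e-05). Both were highest in day 10 libraries 4 and 3 and above day 3 in all libraries. C4b rose (log2 difference 2.93 ± 0.47, adjusted p = 0.000643), while its near-identical copy C4a did not pass (log2 difference -0.12 ± 0.29, adjusted p = 0.783), and the split of reads between the copies is uncertain.

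Of 14 tested chemokine and cytokine genes 6 rose, beside 12.5% of all genes, and 2 with libraries 3 and 4 averaged. Cxcl12, a chemokine of stromal and perivascular cells of bone, had 598, 547, 1667 and 1534 CPM in the day 10 libraries, against 135, 139, 141 and 138 CPM in the day 3 libraries (log2 difference 2.78 ± 0.34, adjusted p = 5.82e-05). The 4 day 3 values were nearly equal, and day 10 libraries 3 and 4 stood far above libraries 1 and 2. Cx3cl1 (fractalkine) rose with a smaller spread (log2 difference 1.96 ± 0.26, adjusted p = 0.000146).

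Matrix-degrading enzymes and their inhibitors rose in 16 of 28 tested, beside 12.5% of all genes, and the other 12 did not pass. With libraries 3 and 4 averaged 10 rose. Mmp19 had 19.9, 19.2, 23.4 and 22.8 CPM in the day 10 libraries, against 4.53, 5.04, 1.26 and 2.42 CPM in the day 3 libraries (log2 difference 2.47 ± 0.32, adjusted p = 0.000122), and 22.3% of its exon bases are shared with Tmem198b on the other strand, which averaged 19.5 CPM on day 10 and 16.9 CPM on day 3. Adamts14, a procollagen N-proteinase, averaged 24.8 ± 7.46 CPM on day 10 and 3.68 ± 1.096 CPM on day 3 (SD, n = 4 libraries each; log2 difference 2.45 ± 0.25, adjusted p = 1.94e-05). Adamts5, an aggrecanase, rose (log2 difference 1.73 ± 0.37, adjusted p = 0.00435), as did the stromelysin Mmp3 (log2 difference 2.03 ± 0.22, adjusted p = 3.69e-05). The days did not overlap for these 4 genes.

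Of 19 collagens outside cartilage fibrils 9 rose and 1 fell, beside 12.5% and 9.65% of all genes. Col8a1, a network-forming collagen, had 71.8, 139, 79.8 and 77.5 CPM in the day 10 libraries, against 5.97, 7.55, 6.62 and 5.34 CPM in the day 3 libraries (log2 difference 3.61 ± 0.25, adjusted p = 7.18e-07), and its partner chain Col8a2 rose (log2 difference 1.84 ± 0.37, adjusted p = 0.00323). Col15a1, a basement membrane collagen, rose too (log2 difference 2.37 ± 0.55, adjusted p = 0.00788), with 5.32, 27.4, 0.785 and 3.01 CPM on day 10 and 0.221, 0.157, 0 and 0.285 CPM on day 3. Col14a1, a collagen on the surface of collagen I fibrils, was the member that fell, to 2.60, 4.88, 4.92 and 5.197 CPM in the day 10 libraries, against 55.6, 37.6, 26.4 and 24.999 CPM in the day 3 libraries (log2 difference -2.74 ± 0.32, adjusted p = 4.64e-05). Among 22 collagen-processing genes 5 rose and 1 fell, beside 12.5% and 9.65% of all genes, and 3 rose without day 10 library 4 or without day 3 library 3 or 4. Loxl4, a cross-linking enzyme, and Plod1, a lysyl hydroxylase, were among those that rose (log2 difference 2.18 ± 0.34, adjusted p = 0.000498 for Loxl4 and log2 difference 0.92 ± 0.15, adjusted p = 0.000665 for Plod1).

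Of 18 genes of the actin cytoskeleton and of YAP activity 8 rose, beside 12.5% of all genes, and 5 with libraries 3 and 4 averaged. Tagln (transgelin) averaged 49.6 ± 18.8 CPM on day 10 and 4.99 ± 2.84 CPM on day 3 (SD, n = 4 libraries each; log2 difference 3.09 ± 0.38, adjusted p = 7.07e-05), and Myl9, a myosin light chain, rose with it (log2 difference 2.53 ± 0.45, adjusted p = 0.00124). In Tagln 62.4% of exon bases are shared with an annotated gene of the other strand, Gm48529. Of 25 genes of glycolysis and hypoxia 8 rose, beside 12.5% of all genes, and 4 without either of day 3 libraries 3 and 4. Epas1 (HIF-2 alpha), a hypoxia-inducible factor of chondrocytes, was its largest member by difference, with 12.9, 24.05, 15.4 and 26.7 CPM in the day 10 libraries, against 1.05, 0.551, 0.595 and 0.783 CPM in the day 3 libraries (log2 difference 3.52 ± 0.21, adjusted p = 1.9e-07). Ndrg1, a hypoxia-responsive gene, rose (log2 difference 1.39 ± 0.20, adjusted p = 0.000256). Vegfa, the vessel growth factor of hypertrophic cartilage, did not pass (log2 difference 1.05 ± 0.48, adjusted p = 0.124).

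Of 34 lysosomal genes 11 rose and 1 fell, beside 12.5% and 9.65% of all genes. The count of rises was 20 without day 10 library 2, 7 without day 10 library 3 or 4, 5 without day 3 library 3, 3 without day 3 library 4, and 3 with libraries 3 and 4 averaged. Gpnmb, a glycoprotein of lysosomes and of osteoblasts, had 377, 31.0, 369 and 513 CPM in day 10 libraries 1 to 4, against 10.8, 16.1, 9.30 and 9.12 CPM in day 3 libraries 1 to 4 (log2 difference 4.18 ± 0.62, adjusted p = 0.000373). Library 2 of day 10 stood far below the other 3 and still above day 3. In some lists few genes passed, beside the 22.2% of all genes. In oxidative phosphorylation 1 of 34 tested genes passed, among cytosolic ribosomal proteins 2 of 42, in cholesterol and fatty acid synthesis 2 of 27 and in serine and one-carbon metabolism 1 of 17. The cholesterol count was 10 without day 10 library 2, the ribosomal count was 5 without day 10 library 2 and 4 without day 10 library 3, and in serine and one-carbon metabolism 3 genes fell without day 10 library 2 and 4 without day 3 library 2. Of 30 genes for secretion and the unfolded protein response 5 rose, a share near the 12.5% of all genes. The count was 3 without day 10 library 4 or without day 3 library 2, 3 or 4, and 1 with libraries 3 and 4 averaged. In the glucocorticoid and circadian list 5 of 19 rose and 1 fell, beside 12.5% and 9.65% of all genes. Zbtb16, a glucocorticoid-responsive factor, was highest in that list (log2 difference 1.55 ± 0.32, adjusted p = 0.00386).

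**Figure D4:**
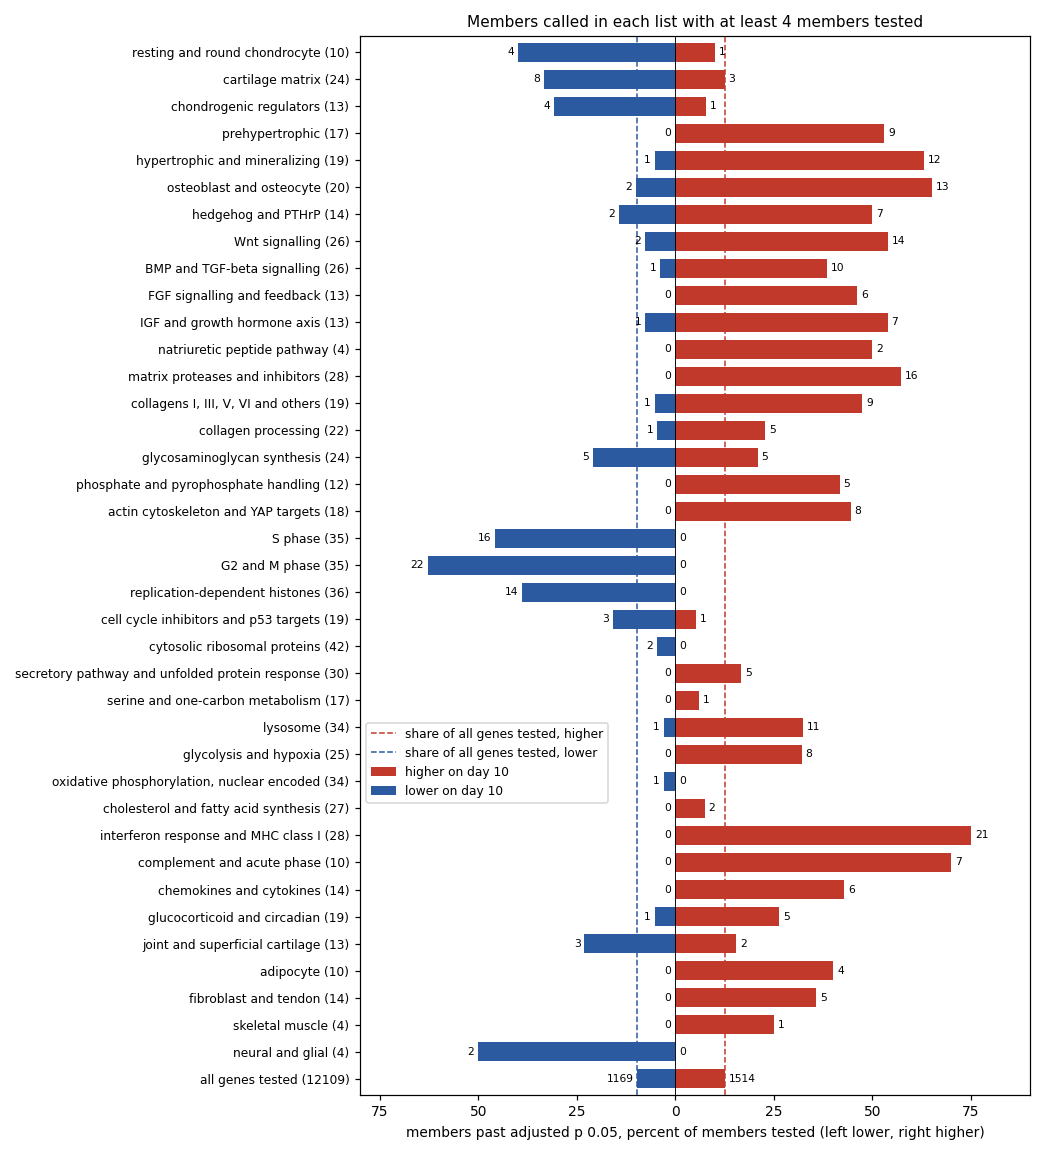
Share of the tested members of each list that rose (red, to the right) or fell (blue, to the left), in percent of the members tested, whose number stands in brackets. Digits at the bars are counts, and dashed lines mark the shares over all genes, 12.5% and 9.65%. Interferon genes had 21 of 28 higher, and G2 and M genes 22 of 35 lower.

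Genes of related mesenchymal cells were partly higher. Of 14 tested fibroblast and tendon genes 5 rose (8 without day 10 library 4), beside 12.5% of all genes. The tested members summed to 1392 to 1929 CPM on day 10 and 614 to 1309 CPM on day 3. Pdgfra, a growth factor receptor of mesenchymal cells, had 171, 175, 158 and 185 CPM in the day 10 libraries, against 89.3, 89.6, 66.2 and 63.0 CPM in the day 3 libraries (log2 difference 1.17 ± 0.13, adjusted p = 3.16e-05). Scx, the defining factor of tendon, did not pass (log2 difference 0.57 ± 0.23, adjusted p = 0.0806), except without day 3 library 2 (adjusted p = 0.0164). Of 10 tested adipocyte genes 4 rose, beside 12.5% of all genes. The list summed to 213 to 538 CPM on day 10 and 257 to 354 CPM on day 3. Cebpa, a transcription factor of fat cells, rose (log2 difference 1.79 ± 0.25, adjusted p = 0.000189), as did Lpl, lipoprotein lipase (log2 difference 1.19 ± 0.32, adjusted p = 0.0158), and Pparg, the defining factor of fat cells, did not pass (log2 difference -0.47 ± 0.20, adjusted p = 0.0925), except without day 10 library 3 (adjusted p = 0.0489). Adipoq stood at 0.649 CPM on day 10 and was listed at 0 on day 3. The part of these cell types in the results above was not tested.

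The day 10 libraries fell apart along these gene groups. The osteoblast and osteocyte median was 2.54, 4.40, 0.94 and 1.23 in day 10 libraries 1 to 4 and between -0.19 and 0.32 in the day 3 libraries. The prehypertrophic median was 1.76, 2.46, 0.68 and 0.64 in day 10 libraries 1 to 4, and the cartilage matrix median -0.71, -0.86, -0.39 and -0.06. Libraries 1 and 2 of day 10 thus held more of the bone genes and less of the cartilage and, in library 2, lysosomal genes, and libraries 3 and 4 less of the cell cycle genes. Of the 656 genes that rose at least 2-fold, 274 were highest in day 10 library 2 and 226 in library 4, and 66 and 90 in libraries 1 and 3. Which of these differences between libraries belong to the culture and which to its handling cannot be told apart, because the labels give no more than a number.

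**Figure D5:**
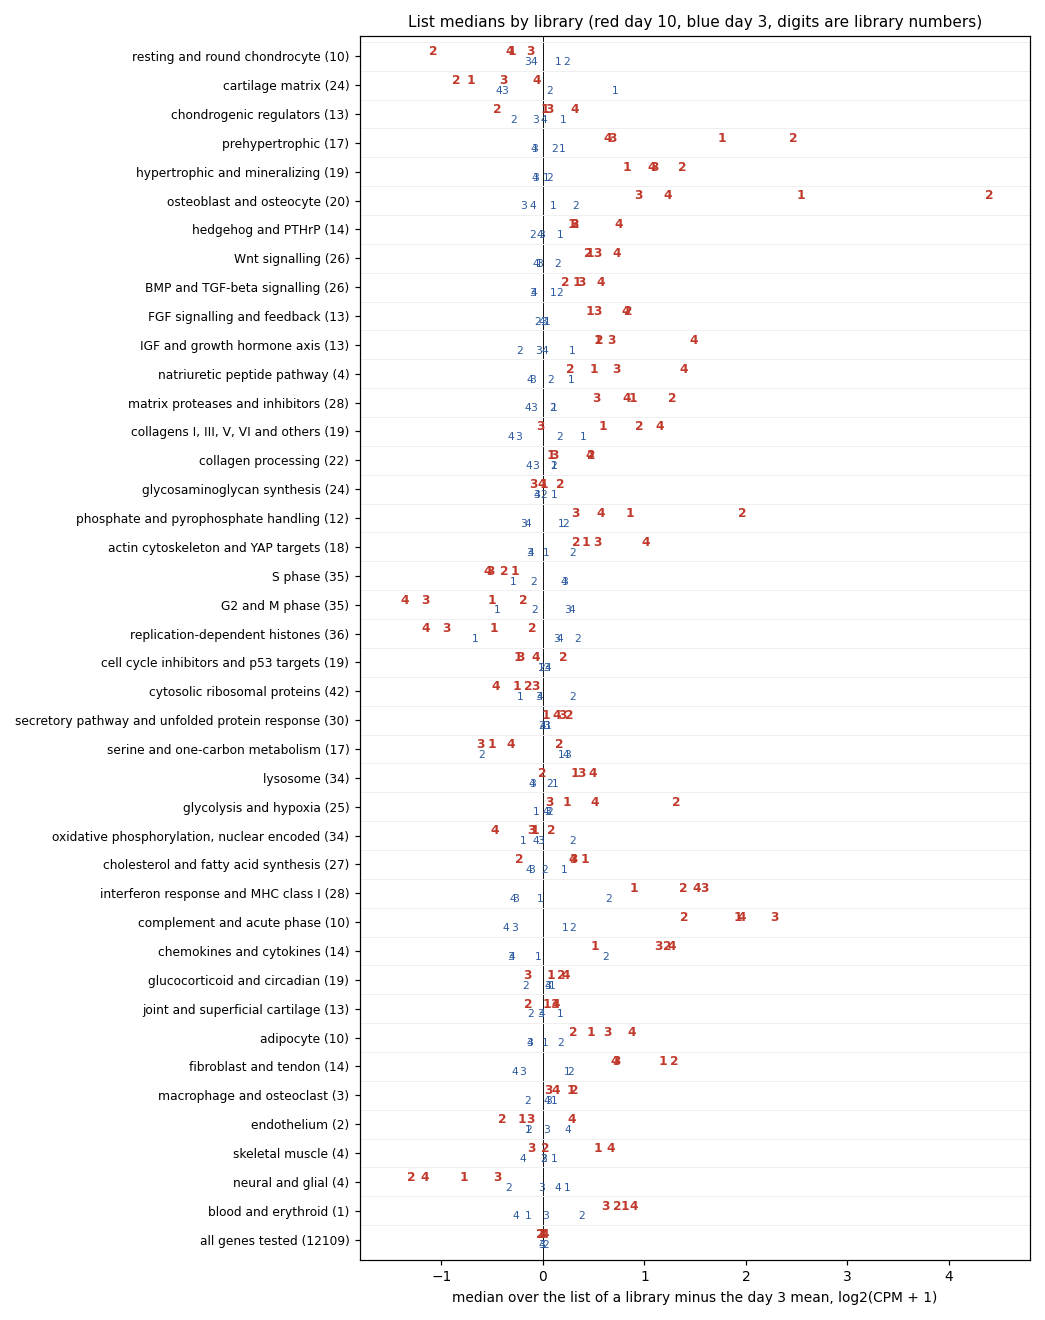
Median over the tested members of each list (number in brackets) of the level in a library minus the mean of day 3 (log2(CPM + 1)), for day 10 libraries in red and day 3 libraries in blue, with digits for library numbers. In the osteoblast and osteocyte list day 10 library 2 stood at 4.40 and library 3 at 0.94, and in the G2 and M list library 2 at -0.19 and library 4 at -1.36.

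Genes outside the lists were among the largest differences of all. Vit, the matrix protein vitrin, had 31.9, 21.6, 18.4 and 19.2 CPM in the day 10 libraries, against 0.0552, 0.0787, 0 and 0 CPM in the day 3 libraries, where 2 reads were counted in all (log2 difference 4.49 ± 0.48, adjusted p = 3.16e-05). Myom1, myomesin-1 of the muscle M-band, had 90.9, 93.0, 116 and 111 CPM on day 10, against 10.8, 2.75, 7.51 and 6.41 CPM on day 3 (log2 difference 3.83 ± 0.29, adjusted p = 1.22e-06), while the muscle regulators Myod1 and Myog were at 0. Irx6, a homeobox factor, rose (log2 difference 3.99 ± 0.47, adjusted p = 4.64e-05), as did Fgl2, a fibrinogen-like protein (log2 difference 4.08 ± 0.54, adjusted p = 0.000133), and Myoc, myocilin (log2 difference 4.08 ± 0.72, adjusted p = 0.00123). Irx6 was highest in day 10 libraries 2 and 1, and Fgl2 and Myoc in libraries 4 and 3.

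Of the genes that fell most, Nts, the peptide neurotensin, had 0.0633, 0.0574, 0.471 and 0.151 CPM in the day 10 libraries, against 5.58, 4.64, 23.7 and 22.7 CPM in the day 3 libraries (log2 difference -3.37 ± 0.52, adjusted p = 0.00048). L1cam, a neural cell adhesion molecule, had 2.09, 0.689, 6.75 and 7.68 CPM on day 10, against 61.3, 20.4, 43.4 and 43.4 CPM on day 3 (log2 difference -3.22 ± 0.50, adjusted p = 0.000504). The long noncoding RNA Rmst fell (log2 difference -3.31 ± 0.36, adjusted p = 3.16e-05), and 26.3% of its exon bases are shared with Gm26700 on the other strand. Hpgd, which breaks down prostaglandins, had 15.8, 25.9, 12.9 and 6.78 CPM on day 10, against 60.7, 72.2, 108 and 105 CPM on day 3 (log2 difference -2.51 ± 0.28, adjusted p = 3.8e-05). Ano5, Lpar4, Gas7, Tmeff2 and Plekha7 fell too, with log2 differences of -2.41, -2.34, -2.27, -2.16 and -2.06 and adjusted p of 0.00048, 3.88e-05, 0.00155, 0.000111 and 0.000711. All 9 genes of this paragraph were lower in every day 10 library than in any day 3 library.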

How the data were processed

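The deposited table holds a signal, reads per gene scaled to library size (CPM) with edgeR's TMM factors. STAR, featureCounts, edgeR and the build GRCm38 are named in the submitters' processing notes. Neither the annotation nor the strand setting is given in the sources used here. Per the labels' protocols, total RNA came from sorted cells, and libraries were made after depletion of ribosomal RNA. Low values stepped in whole reads for all genes (tolerance 0.001), which gave the depth per library and the counts for edgeR and DESeq2. Limma 3.58.1 in R 4.3.3 fitted log2(CPM + 1) of all 15 libraries in 1 model with a mean-dependent prior, and the contrast was day 10 minus day 3. The spread is thus shared with the 7 libraries of days 1 and 5. Genes needed a mean of 1 CPM over the 4 day means. Alternatives were edgeR 4.0.16 and DESeq2 1.42.0 on the recovered reads, pseudocounts of 0.25 and 5, no filter or one of 5 CPM, a fit of the 2 days alone, array weights, CPM without the TMM factor, a replicate block and left-out libraries. Day 10 and day 3 libraries with the same number had correlations of their deviations from the day means of 0.0486, 0.186, 0.144 and -0.043. Those with different numbers had -0.191 to 0.166. The labels give no pairing, and the main fit did not pair libraries by number. Whether a number stands for something shared between days was not tested.

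Named genes were the 15 highest and 15 lowest differences among called genes whose days do not overlap and that reached 5 CPM on either day, without predicted genes and pseudogenes, a set of fixed genes, and of each of 41 lists up to 3 of the highest and lowest called members, with a few members that did not pass. A few members that the rule would name are not reported here. Other called members were named to describe a list after their values were seen. Members and lists were chosen with earlier results of these data known. The interferon motif was chosen after the values had been seen. Exon overlaps come from GENCODE M21, which holds 23661 of the 24499 symbols. Promoters come from RefSeq. The fits were tested on simulated data with Python 3.11.15 used for tables and figures.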

Additional observations from a re-analysis of the deposited data

Results flagged for a closer look

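In 17 of 282 groups of 4 libraries (141 genes on 2 days), 1 library stood apart, with a gap to the nearest other library past the critical value of Dixon's test, as a share of the group's range on the log2(CPM + 1) scale. Chance gives this in about 1 in 20 groups. On day 10 library 2 was the one in 7 of 8 cases, and on day 3 library 2 in 6 and library 1 in 3 of 9.

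On day 10 the gap was 0.852 of the range for Dkk2, 0.85 for Igf1, 0.84 for Col8a1, 0.874 for Dmp1 and 0.83 for Wnt5a, with library 2 highest in each, at 56.4, 26.4, 139, 40.1 and 41.0 CPM. Library 2 was the lowest for Gpnmb (0.881, at 31.0 CPM) and Pparg (0.856, at 9.87 CPM). Library 1 was the lowest for Col14a1 (0.903, at 2.60 CPM).

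On day 3 library 1 stood highest for Lect1 (0.951, at 393 CPM), Col2a1 (0.854, at 20253 CPM) and Frzb (0.923, at 745 CPM), which encode cartilage proteins. Library 2 stood highest for Alpl (0.893, at 4.88 CPM), B2m (0.93, at 364 CPM) and Dmp1 (0.897, at 2.20 CPM), and lowest for Cd68 (0.848, at 3.31 CPM), Cdkn1a (0.844, at 24.9 CPM) and Lgr5 (0.883, at 40.5 CPM).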

How the results depend on the processing

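The main counts were 1514 genes higher and 1169 lower. They were 906 and 374 with the 2 days alone in the fit, 3138 and 2904 with array weights, 689 and 333 with libraries 3 and 4 of each day averaged, 169 and 35 in libraries 1 and 2 alone, and 2453 and 1952 in libraries 3 and 4 alone. Leaving out single libraries gave 1001 to 1766 higher and 546 to 1459 lower. Leaving out a number on all days gave 570 to 2002 higher and 229 to 1661 lower, the fewest without numbers 3 and 4. CPM without the TMM factor gave 1313 and 1539, edgeR 1617 and 1078, DESeq2 1973 and 1270, and the replicate block, whose pairing the labels do not give, 2038 and 1717. At least 2-fold higher genes numbered 398 with a pseudocount of 5 and 477 with a filter of 5 CPM, beside 729. At least 2-fold lower genes numbered 83 with that pseudocount, 124 to 278 with a number left out and 534 in libraries 3 and 4 alone, beside 164. Of 121 called genes in the text, edgeR lost 2 (Grem1 and Sox9), DESeq2 1 (Grem1), CPM without the TMM factor 1 (Foxo1), the fit of 2 days 15 and libraries 1 and 2 alone 72, and the block gained 7. Signs turned for genes that had not passed. Fgfr3 was at 0.07 without day 10 library 1, and at -0.34 to 0.12 with a number left out. In libraries 3 and 4 alone Acan was at 0.19, Col11a1 at 0.10 and Cd14 at -0.015. In libraries 1 and 2 alone Mki67 was at 0.43, C4a at 0.049 and Cd68 at 0.12. Cd68 was at 0.027 without day 10 library 4, and at -0.37 to 0.066 with a number left out, and Vegfa at -0.054 with array weights. The cause of these moves was not tested. One read was worth at most 0.0787 CPM, so differences of genes near 0 on day 3 rest on few reads.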
